A study of Pinus pinaster with 36 samples.

Results

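In seedlings of maritime pine, a conifer of the Mediterranean (Pinus pinaster), needles and stem were compared through the 68434 transcripts that reached a mean of at least 1 CPM in either organ, out of 224081 transcript identifiers in the count table. CPM is a count scaled to a library total of 1000000. The comparison used 12 needle and 12 stem libraries of the 36 in the study. The other 12 came from roots and served only as a further readout. All groups were of the Segura-Alcaraz provenance, 2 months old. They had been watered weekly for 1 month with 40 mL of 8 mM ammonium chloride or 8 mM potassium nitrate, so that chloride and potassium changed with the nitrogen form. Each nitrogen form was given under CO2 of either 400 or 720 ppm. Each organ therefore had 4 groups, ammonium at 400 and 720 ppm and nitrate at 400 and 720 ppm, with 3 biological replicates each. Each replicate pooled the organ of 12 seedlings, with needles and stem from the same plants. The sources used here do not say how many growth chambers there were, so a chamber and its CO2 level cannot be told apart.

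Needles are the photosynthetic organs of a conifer: their mesophyll cells hold chloroplasts, fix carbon and assimilate a part of the plant's nitrogen, and their stomata take up CO2. The stem carries water upwards in xylem and sugars in phloem, and its cambium forms wood cells with cellulose and lignin in their walls. The outer tissues of a young pine stem are often green as well.

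The files pair no identifier with a gene name. The organ labels could therefore not be checked against photosynthesis, wood or phloem markers, no function is attached to any transcript, and identifiers stand for themselves. The libraries are bulk samples, in which fewer cells of a type and less RNA per cell cannot be told apart. CPM is not divided by transcript length, so levels are compared between libraries for the same transcript and ranked only as shares of counts.

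Library totals were 73414247 to 134836160 counts in needles and 76082457 to 111368507 in stem. In 7 libraries, 4 of needles and 3 of stem, more than 65% of the counts above 20 were even numbers. These libraries, called low-complexity here by that share alone, also had many identifiers at 0. Another set of libraries stood apart by needle transcripts in stem. A group of 108 transcripts with a median of at least 5 CPM in needles and under 0.05 CPM in stem and in roots, picked after the values were seen, summed to 1117 to 1386 CPM in the needle libraries. In 4 stem libraries (ammonium 400 ppm replicate 1, ammonium 720 ppm replicate 2, nitrate 400 ppm replicates 1 and 3) the same transcripts summed to 28.8 to 59.9 CPM, which is 2.41 to 5.02% of the mean needle level. In the other 8 stem libraries they summed to 0.0390 to 5.81 CPM, and in roots to 0.958 to 2.66 CPM. The mirror group of 52 transcripts, at least 5 CPM in stem and under 0.05 CPM in needles by median, summed to 680 to 920 CPM in stem libraries and 0.559 to 3.42 CPM in needle libraries. Counts below are given without these libraries where they differed by more than 1.5 times.

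Needle libraries put more of their counts into fewer transcripts than stem libraries did. The 50 most abundant transcripts of a library took 13.0 ± 1.44% of needle counts (SD, n = 12) and 6.48 ± 0.444% of stem counts. The needle values ran from 10.9 to 15.5% and the stem values from 5.84 to 7.14%, with no overlap. A needle library reached 50% of its counts with 2298 ± 284 transcripts and a stem library with 4500 ± 205 (SD, n = 12 each). Transcripts at 1 CPM or more numbered 56055 ± 897 in needles and 64862 ± 1289 in stem. For these measures, and for the shares of the top 10, 100 and 1000 transcripts, the difference had the same direction in 4 of 4 treatments. A two-sided permutation test with 100000 resamples gave p = 1e-05 for each, the smallest it can give, and 1.33e-05 after Benjamini-Hochberg adjustment over 8 measures. The test shuffled the 24 libraries freely and kept neither treatments nor pools of seedlings together. Its p-values therefore take the libraries as independent, although needles and stem came from the same plants. The share of identifiers at 0 counts was 41.9 ± 10.2% in needles and 35.4 ± 13.1% in stem (SD, n = 12, permutation test p = 0.184, adjusted p = 0.211) and so did not pass. Without the low-complexity libraries its adjusted p was 0.0251.

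**Figure D1:**
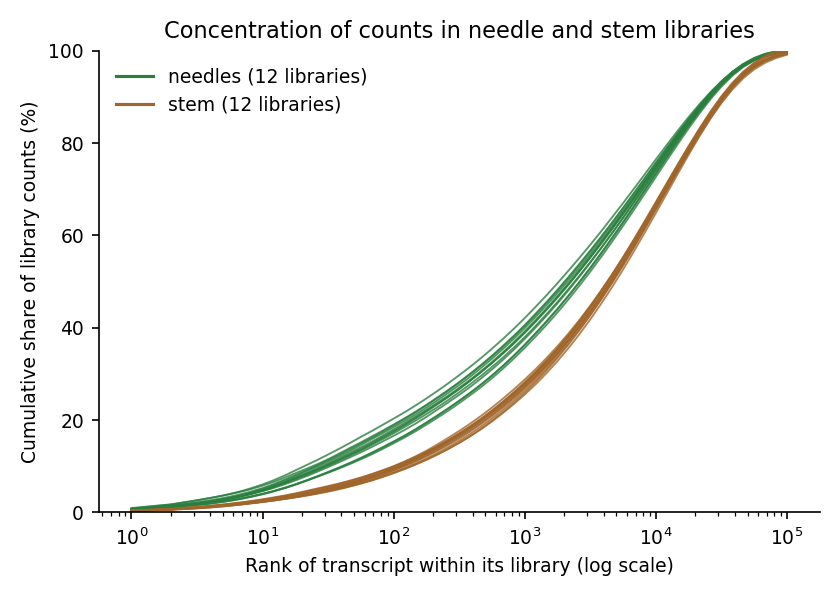
Cumulative share of library counts (y axis, %) held by transcripts ranked from the most abundant down (x axis, log scale), 1 line per library, green for the 12 needle and brown for the 12 stem libraries. The needle lines lie above the stem lines from rank 10 to rank 1000, where the means are 4.83 against 2.50% and 38.7 against 27.3%.

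The most abundant transcripts of the organs were largely different ones. The 50 highest by mean CPM in needles and the 50 highest in stem shared 14. Of the 50 highest in needles, 49 were called higher in needles by the organ test given next, 46 of them by more than 2-fold. Of the 50 highest in stem, 27 were called higher in stem, 15 of them by more than 2-fold, and 17 were called higher in needles. Lists of top transcripts in an organ favour that organ by construction, so these counts describe and do not test.

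With TMM scaling, and not with library totals, the organs differed in about as many transcripts in each direction. Counts were tested with edgeR's quasi-likelihood test on TMM-scaled libraries, as the mean of the 4 needle groups against the mean of the 4 stem groups. A transcript was called at a Benjamini-Hochberg adjusted p under 0.05 over the 150648 transcripts tested, among which were all 68434 described here. Of the 68434, 22391 (32.7%) were called higher in needles, beside 19% of all transcripts tested. A further 22825 (33.4%) were called higher in stem, beside 24.8% of all tested, and 23218 were not called. In either direction these were 45216, beside 43.8% of all tested. The median log2 fold change, needles minus stem, was -0.03 over the 68434 transcripts and -0.28 over all tested.

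A transcript that reached 1 CPM in a single organ had to differ between organs to enter, so those were counted apart. At 1 CPM or more in both organs were 51918 transcripts, of which 18536 were called higher in needles and 14570 higher in stem. At 1 CPM in needles alone were 4062, of which 3855 were called higher in needles and 0 higher in stem. At 1 CPM in stem alone were 12454, of which 8255 were called higher in stem and 0 higher in needles. The mean of the higher organ was 1.00006 CPM for the last transcript taken in and 0.999969 CPM for the first left out.

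The direction split depends on the scaling. TMM set the effective library size of needles to 0.841 times the total on average (0.750 to 0.925) and that of stem to 1.19 times (1.12 to 1.28), and scaling by library totals shifted the median log2 fold change by -0.50. With library totals, 12715 transcripts were called higher in needles and 41908 higher in stem, so that needles made up 23.3% of the calls in place of 49.5%. All 12715 were also called higher in needles with TMM, and the 22825 called higher in stem with TMM were called so under both. A further 2252 transcripts called higher in needles with TMM were called higher in stem with library totals. With DESeq2's size factors the shift was -0.01, with 22147 higher in needles and 23550 higher in stem.

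Most organ differences were small, and those beyond 32-fold were more often on the needle side. Within 2-fold lay 45385 transcripts (66.3%), of which 22714 were still called. More than 2-fold higher in needles were 11306, beside 15.4% of all transcripts tested, and more than 2-fold higher in stem were 11743, beside 31% of all tested. Among the 51918 transcripts at 1 CPM or more in both organs the numbers were 7517 in needles and 4126 in stem with TMM, and 4881 and 9670 with library totals. Between 2- and 4-fold were 5259 on the needle side and 6947 on the stem side. Between 4- and 8-fold were 3091 and 2613, and between 8- and 32-fold 1858 and 1671. More than 32-fold higher were 1098 transcripts in needles and 512 in stem. With library totals in place of TMM they were 939 and 697, while beyond 8-fold the larger side changed, from 2956 in needles and 2183 in stem with TMM to 2057 and 3301. Of the 1098 and 512, 81 and 4 were at 1 CPM or more in both organs. Fitted folds of that size depend on a few counts in the low organ, and just 22 of the 68434 transcripts had 0 counts in all needle libraries and 3 in all stem libraries.

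The size of the largest needle differences moved with the treatment and with the 4 stem libraries that held needle transcripts. More than 32-fold higher in needles were 1139 transcripts with ammonium at 400 ppm, 1077 with ammonium at 720 ppm, 653 with nitrate at 400 ppm and 1281 with nitrate at 720 ppm. Nitrate at 400 ppm has 2 of those 4 stem libraries and nitrate at 720 ppm has none. Without the 4 libraries the counts were 1272, 1258, 1149 and 1281 in the same order. More than 32-fold higher in stem were 535, 439, 745 and 417 with all libraries and 565, 429, 758 and 417 without the 4.

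Differences beyond 2-fold on the needle side took a larger share at higher abundance. Among 49646 transcripts with a mean under 10 CPM over the 24 libraries, 7875 were more than 2-fold higher in needles and 10193 in stem. Those at 1 CPM or more in both organs were 33267 of this class, with 4168 more than 2-fold higher in needles and 2631 in stem. With TMM the stem excess of the class thus came from transcripts that entered through stem alone. Among 17524 at 10 to 100 CPM, 2983 were more than 2-fold higher in needles and 1456 in stem. Among 1219 at 100 to 1000 CPM the numbers were 417 and 92, and among 45 at 1000 CPM or more they were 31 and 2. The share not called fell from 37.6% in the lowest class to 25.1, 13.9 and 6.67%, and the median size of the difference was 0.65, 0.42, 0.71 and 2.60 on the log2 scale. With library totals in place of TMM in the same fit, the counts higher in needles and in stem were 5635 and 16443, 2204 and 2997, 370 and 179, and 29 and 6. At 1 CPM or more in both organs and under 10 CPM they were then 2360 and 6543, a stem excess without those that entered through stem alone. The needle side was thus the larger one from 100 CPM upwards under both scalings, and the larger side between 10 and 100 CPM changed with the scaling.

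**Figure D2:**
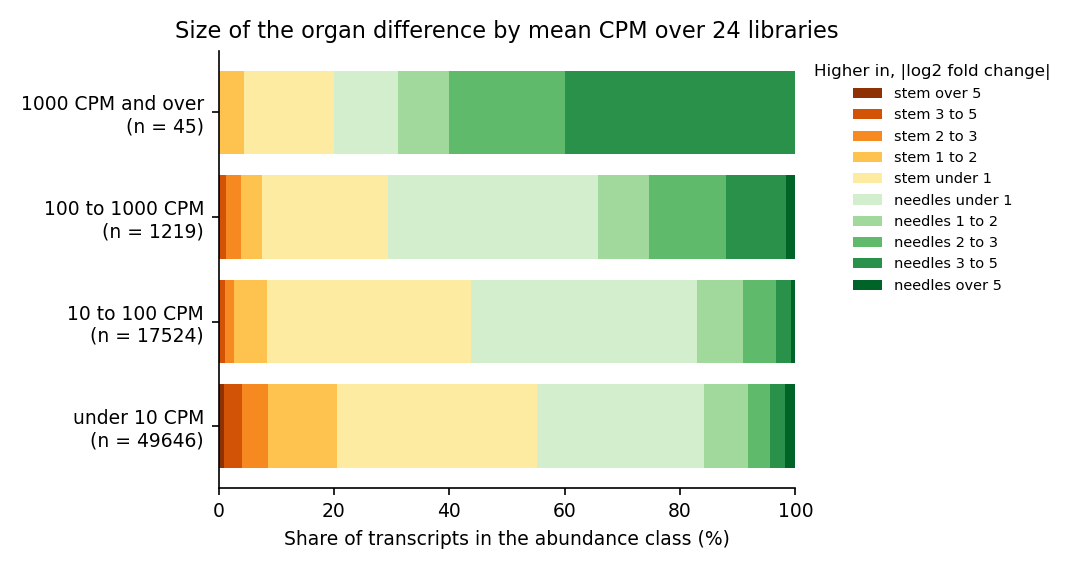
Share of transcripts (x axis, %) in classes of the organ difference, for 4 classes of mean CPM over the 24 libraries (y axis, with the number of transcripts). Greens are higher in needles and browns higher in stem, darker for a larger log2 fold change, and 31 of the 45 transcripts at 1000 CPM or more are more than 2-fold higher in needles.

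**Figure D3:**
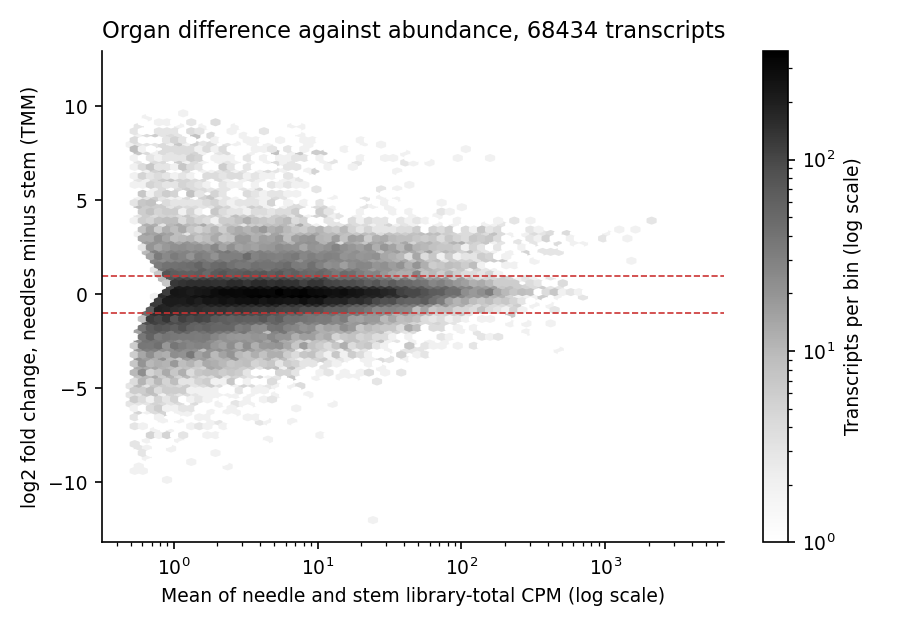
Organ difference (y axis, TMM-scaled log2 fold change, needles minus stem) against the mean of needle and stem CPM (x axis, log scale) for 68434 transcripts, shaded by the number per bin, with dashed lines at 2-fold. Most of the mass lies within 2-fold, and above 100 CPM the points beyond 2-fold lie mainly on the needle side.

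In shares of counts the contrast was steeper than in numbers of transcripts. The 11210 transcripts called and more than 2-fold higher in needles took 43.4 ± 1.26% of needle counts and 11.4 ± 1.15% of stem counts (SD, n = 12 each). The 11292 called and more than 2-fold higher in stem took 14.4 ± 0.453% of stem counts and 2.87 ± 0.117% of needle counts. The 45385 within 2-fold took 52.3 ± 1.15% of needle and 71.8 ± 1.24% of stem counts. The 31 abundant needle-higher transcripts at 1000 CPM or more held 10.02 ± 1.25% of needle counts and 2.09 ± 0.419% of stem counts. These sets were chosen on the same libraries, so the shares are a description. A needle library thus drew nearly as many of its counts from the needle-higher set as from the much larger set within 2-fold.

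At the abundant end, single transcripts show the same contrast. Levels of single transcripts are TMM-scaled CPM, and those named were picked by a rule on size or abundance. That rule took only called transcripts whose 12 needle and 12 stem values did not overlap. Call and lack of overlap are thus descriptions here and not tests. PpCO2_166271, the highest of the needle-higher transcripts, ran from 6247 to 11446 with a median of 8336 in needles and from 788 to 1991 with a median of 1377 in stem. Its lowest needle library was above its highest stem library, a difference of 2.60 ± 0.09 on the log2 scale (± SE, adjusted p = 2.98e-16 by edgeR). PpCO2_166267 ran from 5697 to 11149 (median 7879) in needles and from 831 to 2017 (median 1577) in stem, again without overlap, and differed by 2.39 ± 0.10 (log2 ± SE, adjusted p = 1.45e-14 by edgeR). Both were lower still in roots, at means of 31.6 ± 9.85 and 64.6 ± 23.0 library-total CPM (SD, n = 12). Their identifier numbers are 4 apart, and near-identical copies that share reads could not be recognised here.

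On the stem side, PpCO2_70890 ran from 2037 to 3210 (median 2706) in stem and from 1008 to 1520 (median 1274) in needles, a log2 difference, needles minus stem, of -1.10 ± 0.06 (± SE, adjusted p = 7.98e-15 by edgeR). PpCO2_7398 ran from 1038 to 1524 (median 1314) in stem and from 92.4 to 132 (median 114) in needles, a log2 difference of -3.51 ± 0.06 (± SE, adjusted p = 7.16e-23 by edgeR). Neither overlapped between organs, and both were called in all 4 treatments. Roots held both, at 1878 ± 207 and 3438 ± 699 library-total CPM (SD, n = 12). For PpCO2_7398 the root mean lay above the stem mean of 1539 on that scale.

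The extremes by size were low in level. PpCO2_191632 ran from 9.03 to 16.1 CPM (median 12.3) in needles, while the median stem library had 0 and the highest 0.424. The needle libraries held 11152 counts and the stem libraries 76, a ratio of summed CPM of 198. PpCO2_158357 ran from 9.60 to 19.3 CPM (median 12.3) in needles and from 0 to 0.300 in stem, with 12091 against 63 counts and a ratio of 259. For both, the stem counts stood mostly in libraries of ammonium at 720 ppm and nitrate at 400 ppm, the treatments of 3 of the 4 stem libraries with needle transcripts. On the stem side, PpCO2_171766 ran from 18.4 to 63.2 CPM (median 45.5) and PpCO2_171769 from 16.1 to 59.4 (median 40.5), and both had 0 counts in all 12 needle libraries. Against a floor of 3 counts over the 12 needle libraries (0.00330 CPM) they were at least 12931-fold and 11708-fold higher in stem. All 4 transcripts were called in every treatment, which the rule on size required (edgeR adjusted p of the organ test from 1.49e-13 to 4.88e-08).

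Some abundant transcripts were close to even. PpCO2_47399 ran from 1462 to 4659 (median 2692) in needles and from 2034 to 3643 (median 2812) in stem, a log2 difference of -0.05 ± 0.08 (± SE, adjusted p = 0.670 by edgeR). PpCO2_47402 ran from 589 to 2035 (median 1164) in needles and from 758 to 1277 (median 1038) in stem, a log2 difference of 0.18 ± 0.10 (± SE, adjusted p = 0.1504 by edgeR). The ranges overlapped in both. Their evenness rests on TMM: with library totals the changes were -0.55 (edgeR adjusted p = 1.79e-08) and -0.32 (edgeR adjusted p = 0.00303).

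**Figure D4:**
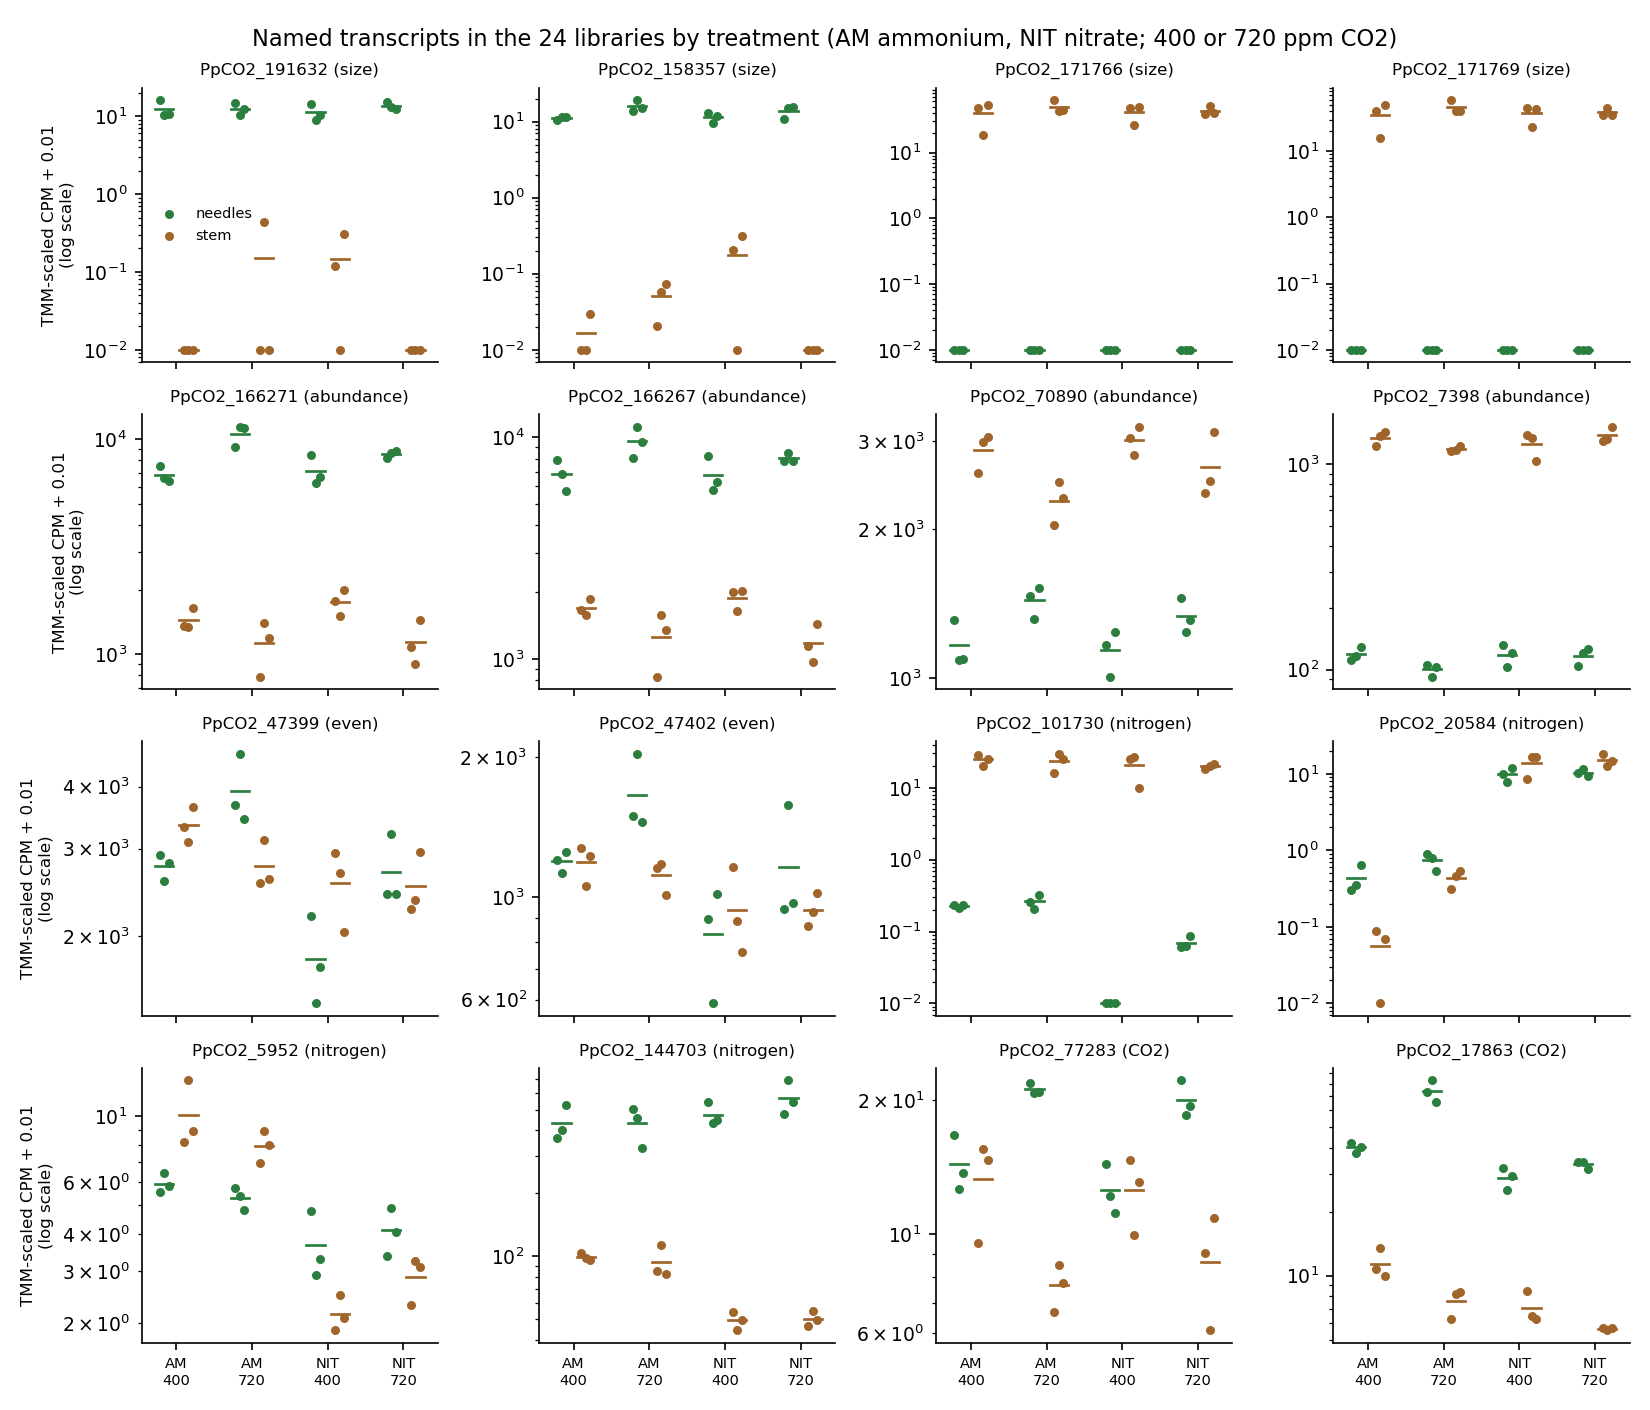
TMM-scaled CPM plus 0.01 (y axis, log scale) of the 16 named transcripts in each needle (green) and stem (brown) library by treatment (x axis), with a bar at the mean of 3 libraries and the rule that chose each in brackets. In the first 2 rows the organs do not overlap, which the rule required, and in the 2 even transcripts they do. In the last 6 the distance between organs changes with nitrogen form or CO2.

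Large organ differences mostly had the same direction in all 4 treatments, although they were picked on the mean of the 4. With TMM more transcripts were called in all 4 on the needle side than on the stem side, and with library totals fewer. The 4 treatments share no library, so each has its own needle and stem means. All 4 were contrasts of 1 fit, with scaling and variance estimated over the 24 libraries, and are not 4 independent tests. With ammonium at 400 ppm, 15242 transcripts were called higher in needles (beside 11.3% of all tested) and 11344 higher in stem (8.44%). With ammonium at 720 ppm they were 14093 (10.3%) and 12452 (8.78%). With nitrate at 400 ppm they were 13196 (9.29%) and 12903 (10.4%), and with nitrate at 720 ppm 15277 (11.2%) and 11304 (8.16%). In either direction the 4 treatments gave 26586 (19.8% of all tested), 26545 (19.1%), 26099 (19.7%) and 26581 calls (19.3%) in that order. Each compared the means of 3 and 3 libraries within the fit of all 24. Without the 4 stem libraries with needle transcripts, nitrate at 400 ppm, left with 1 stem library that is assumed to vary like the other groups, gave 15572 calls.

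Called in all 4 treatments in one direction were 17710 transcripts (25.9%, beside 12.1% of all tested). Of these, 10493 were higher in needles (beside 7.24%) and 7217 higher in stem (beside 4.9%). At 1 CPM or more in both organs were 8333 of the former and 4868 of the latter. The rest had entered through the organ where they were high. Without replicate 2 or 3 of every group the stem number was 3994 or 4491, and without the 4 stem libraries with needle transcripts it was 4804. A further 4816 were called in 3 treatments, 5640 in 2 and 9166 in 1, and 31065 in none. The sign of the difference was the same in all 4 treatments for 49371 transcripts (72.1%), and for 43102 of the 45216 called overall. With library totals in place of TMM, 17871 transcripts were called higher in stem in all 4 treatments. Of the 10493 higher in needles, 6998 kept that call in all 4, so the larger side changed with the scaling.

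Larger differences were called in all 4 treatments more often than smaller ones. With TMM, 76.6% of transcripts called and more than 2-fold higher in needles were called in all 4 treatments. Of those called and more than 2-fold higher in stem, 49.5% were. Transcripts at 1 CPM in a single organ made up 3788 of the 11306 beyond 2-fold in needles and 7617 of the 11743 in stem. The 2 percentages were not computed without them or with library totals. Of both sets together, 99.5% had the same sign in all 4. Of the 22714 called within 2-fold, 15.6% were called in all 4. The gap between the sides was wider at low abundance. Between 2- and 4-fold at 10 to 100 CPM, 97.0% on the needle side and 92.6% on the stem side were called in all 4. Under 10 CPM these were 54.1 and 29.9%. Between 4- and 8-fold they were 99.8 and 99.3%, and under 10 CPM 68.2 and 46.5%. Under 10 CPM lay 10193 of the 11743 transcripts more than 2-fold higher in stem and 7875 of the 11306 in needles. By size alone, 9034 transcripts were more than 2-fold higher in needles in each of the 4 treatments and 7708 in stem. The 12 needle and the 12 stem values did not overlap for 10896 transcripts higher in needles (beside 7.71% of all tested) and 7684 higher in stem (beside 5.39%). Both numbers include transcripts that entered through a single organ.

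Log2 fold changes of different treatments ran together across the 68434 transcripts, with Pearson's r of 0.893 to 0.937 over the 6 pairs of treatments. At 1000 CPM or more r was 0.971 to 0.992 over 45 transcripts. These are correlations across transcripts, which are not independent replicates, and the organ labels are common to all 4. In the total variance of log2 levels over the 24 libraries, organ took 74.2%, treatment within organ 8.94% and replicates 16.9%. Transcripts with large differences weigh most in that total, and the medians of the shares per transcript were 44.2, 14.8 and 35.1%. The first principal component held 74.5% of the variance and placed all needle libraries on one side and all stem libraries on the other, and the second held 3.25%. On the second, stem nitrate 720 ppm replicate 1, a low-complexity library, stood apart at a score of 134.8, with the other 23 between -30.0 and 31.1. Without it 22219 transcripts were called higher in needles and 23375 higher in stem. The median replicate SD of a transcript was 0.25 on the log2 scale in needles and 0.26 in stem.

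**Figure D5:**
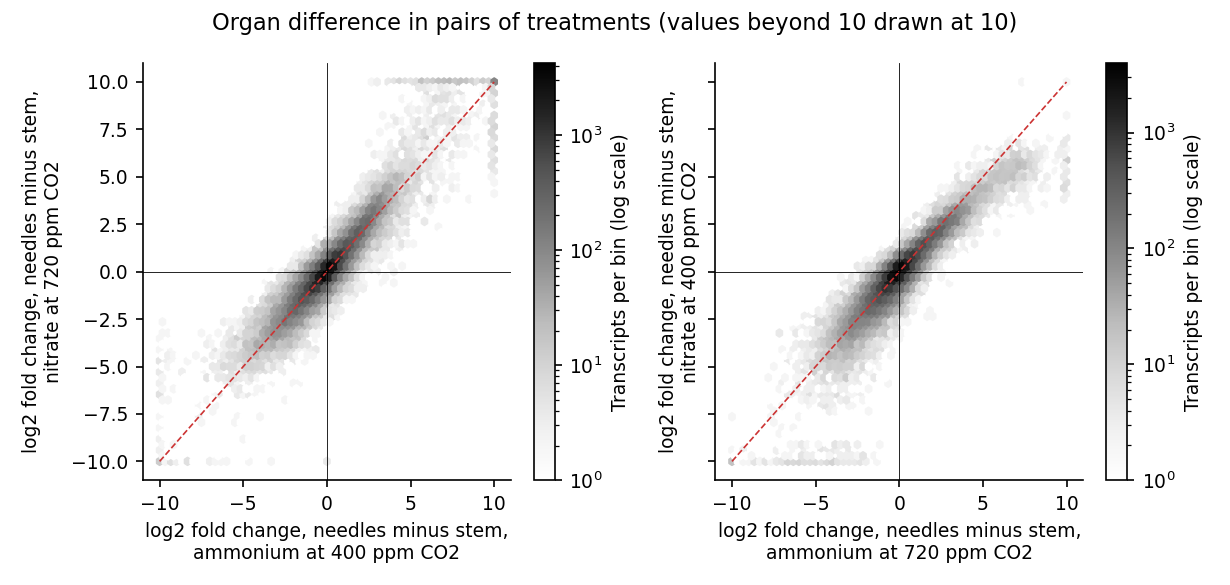
Log2 fold change, needles minus stem, of 68434 transcripts in 1 treatment (x axis) against a treatment that differs in both nitrogen form and CO2 (y axis), shaded by number, with the diagonal dashed and values beyond 10 drawn at 10. The points follow the diagonal (Pearson's r 0.917 at left and 0.902 at right), and at right the largest needle-side values are smaller with nitrate at 400 ppm than with ammonium at 720 ppm.

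Opposite calls in different treatments were rare. In 37 transcripts (0.0541%) the needle-higher call of 1 treatment met a stem-higher call of another. For 14 of them needles were higher at 720 ppm and stem at 400 ppm, and for 19 the reverse. An F-test of equal organ differences over the 4 treatments called 1 of the 37 (lowest adjusted p = 8.60e-05, edgeR quasi-likelihood F-test). A call in one treatment and none in another does not show that the treatments differ, so the difference was tested itself.

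Few transcripts had an organ difference that depended on treatment by that test, and their number was unstable. The F-test over the 4 treatments called 9 transcripts (0.00597% of all tested), with 6156 of the 68434 (8.996%) and 8511 of the 150648 tested at an unadjusted p under 0.05. Nitrogen form changed the organ difference of 23 (0.0153% of all tested), CO2 that of 2 (0.00133%) and the combination of both that of 1 (0.000664%). At an unadjusted p under 0.05 they numbered 3504 (5.12%), 7346 (10.7%) and 3699 (5.41%) of the 68434, and 7297, 11693 and 7907 of all tested. With the pool of seedlings as a replicate block the numbers were 37, 39, 107 and 0 in the same order. With DESeq2 they were 785, 193, 874 and 52, and with limma-voom 0, 1, 13 and 0. Leaving out single libraries gave 1 to 180 for the F-test, 4 to 159 for nitrogen form, 0 to 452 for CO2 and 0 to 97 for both. For the F-test, CO2 and both, 20, 21 and 20 of the 24 libraries moved the number by more than 1.5 times.

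The widest shifts came from stem libraries. Without ammonium 400 ppm replicate 3 of the stem the numbers were 180 for the F-test, 159 for nitrogen form, 92 for CO2 and 97 for both. Without ammonium 720 ppm replicate 2 of the stem CO2 gave 452. Without nitrate 720 ppm replicate 1 of the stem, the library apart on the second component, the F-test gave 5, CO2 1 and both 0. For nitrogen form, 8 libraries moved the number by more than 1.5 times. These were ammonium 400 ppm replicate 3 (159) and nitrate 400 ppm replicate 1 of the stem (36) and, of the needles, nitrate 400 ppm replicates 1 and 3 (4 and 53), replicates 1 and 2 of ammonium at 720 ppm (37 and 14) and replicates 2 and 3 of nitrate at 720 ppm (15 and 15). The number was 1 without the low-complexity libraries and 5 without the stem libraries with needle transcripts.

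The 23 transcripts called by nitrogen form fell into those with a steady and those with a changing direction. In 15 the organ difference had the same sign in all 4 treatments, and in all 15 it was larger with nitrate than with ammonium. Of these, 9 were higher in needles and 6 higher in stem. In the other 8 the sign changed between treatments. Of the 23, 15 lay within 10 identifier numbers of another, so they may stand for fewer genes.

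PpCO2_144703 is 1 of 6 such transcripts, the other 5 being within the next 10 identifier numbers. In needles its 3 libraries were at 368, 401 and 526 CPM with ammonium at 400 ppm, 507, 458 and 329 at 720 ppm, 543, 433 and 449 with nitrate at 400 ppm, and 476, 691 and 546 at 720 ppm. In stem they were at 104, 97.7 and 96.5 and at 85.0, 114 and 82.7 with ammonium, and at 54.5, 44.3 and 49.7 and at 46.7, 55.0 and 49.5 with nitrate. The stem values with nitrate were all below those with ammonium, while the needle ranges overlapped. The organ difference was 1.22 smaller on the log2 scale with ammonium (change -1.22, SE 0.16, edgeR adjusted p = 0.00533). The call held in each of the 24 fits without a single library (highest adjusted p = 0.0229) and was lost without the stem libraries with needle transcripts (edgeR adjusted p = 0.0753), without the low-complexity libraries (0.228), without replicate 2 of every group (0.228) and with limma-voom (0.167).

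PpCO2_5952 changed sign with the nitrogen form. Its means with ammonium at 400 and 720 ppm were 5.91 ± 0.438 and 5.29 ± 0.449 CPM in needles and 10.1 ± 2.71 and 7.94 ± 0.978 in stem (SD, n = 3). With nitrate they were 3.65 ± 0.982 and 4.10 ± 0.776 in needles and 2.14 ± 0.303 and 2.86 ± 0.495 in stem. Stem was thus the higher organ with ammonium and needles with nitrate (change -1.32, SE 0.21, edgeR adjusted p = 0.0235). The change was not called without replicate 1, 2 or 3 of every group (edgeR adjusted p 0.107, 0.373 and 0.231). Nor was it called in the fit of all 36 libraries (0.0571). The call was lost without needles nitrate 400 ppm replicate 1 (0.0525) or nitrate 720 ppm replicate 2 (0.0541), and without the stem libraries with needle transcripts (edgeR adjusted p = 0.307).

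PpCO2_20584 was low in both organs with ammonium, at 0.425 ± 0.190 and 0.734 ± 0.184 CPM in needles and 0.0457 ± 0.0405 and 0.426 ± 0.117 in stem (SD, n = 3). With nitrate it was at 9.92 ± 2.14 and 10.4 ± 1.04 in needles and 14.0 ± 4.65 and 15.2 ± 2.83 in stem. The organ difference with ammonium was 3.33 on the log2 scale at 400 ppm, from 99 needle and 14 stem counts. At 720 ppm it was 0.78, from 177 and 134 counts, and with nitrate it was -0.49 and -0.56. The change of the organ difference was 2.58 (SE 0.41, edgeR adjusted p = 0.0241) and rests in part on the 14 counts. It was not called without replicate 1, 2 or 3 of every group (edgeR adjusted p 0.131, 0.343 and 0.207). The call was lost with the replicate block (0.178) and without the stem libraries with needle transcripts. It was also lost (0.0514 to 0.0713) in 13 of the 24 fits without a single library. Those were needles ammonium 400 ppm replicate 3 and 720 ppm replicate 2, needles nitrate 400 ppm replicates 1 and 2 and 720 ppm replicates 1 to 3, and, of the stem, replicates 1 and 2 of ammonium at 720 ppm, 2 and 3 of nitrate at 400 ppm and 1 and 3 of nitrate at 720 ppm.

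PpCO2_101730 was a stem transcript, at 20.05 to 24.8 CPM by group mean in stem. In needles it had 48 and 58 counts with ammonium, and 0 and 14 with nitrate, at 400 and 720 ppm. With a group at 0 its fitted change is not given (edgeR adjusted p = 0.0241). The call was lost without replicate 1 or 2 of every group (edgeR adjusted p 0.935 and 0.562) and in the fit of all 36 libraries (0.0934). It was also lost (0.0519 to 0.0800) in 11 of the 24 fits without a single library. Those were needles ammonium 400 ppm replicates 1 to 3 and 720 ppm replicate 3, needles nitrate 400 ppm replicates 1 and 2 and 720 ppm replicates 1 to 3, stem ammonium 400 ppm replicate 2 and stem nitrate 720 ppm replicate 1.

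Both transcripts called by CO2 had a wider organ difference at 720 ppm. PpCO2_17863 was at 40.1 ± 2.08 CPM in needles with ammonium at 400 ppm and 73.9 ± 8.69 at 720 ppm, and at 28.9 ± 3.38 and 33.5 ± 1.38 with nitrate (SD, n = 3). In stem it was at 11.4 ± 1.86 and 7.59 ± 1.18 with ammonium and 7.04 ± 1.21 and 5.61 ± 0.0748 with nitrate. Needle means were thus higher and stem means lower at 720 ppm (change 1.00, SE 0.14, edgeR adjusted p = 0.0218). The change was not called without replicate 1 or 2 of every group (edgeR adjusted p 0.136 and 0.0807). Nor was it called with library totals in place of TMM (0.0722). The call was lost (0.0545 to 0.0710) without any 1 of 6 needle libraries, ammonium 400 ppm replicates 2 and 3, ammonium 720 ppm replicate 2, nitrate 400 ppm replicate 2 and nitrate 720 ppm replicates 1 and 2.

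PpCO2_77283 was nearly even at 400 ppm, with 14.3 ± 2.10 CPM in needles and 13.3 ± 3.25 in stem with ammonium and 12.6 ± 1.64 and 12.6 ± 2.42 with nitrate (SD, n = 3). At 720 ppm it was at 21.1 ± 0.609 and 7.66 ± 0.922 with ammonium and 20.02 ± 1.87 and 8.66 ± 2.42 with nitrate (change 1.28, SE 0.19, edgeR adjusted p = 0.0426). The call was lost (0.0563 to 0.117) without any 1 of 10 libraries. Those were needles ammonium 400 ppm replicates 2 and 3 and 720 ppm replicate 2, needles nitrate 400 ppm replicate 2 and 720 ppm replicates 1 and 2, stem ammonium 720 ppm replicate 1, stem nitrate 400 ppm replicates 1 and 3 and stem nitrate 720 ppm replicate 1.

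Roots gave a readout that neither the choice of transcripts nor the fit had used. Of transcripts called and more than 2-fold higher in needles, 55.0 ± 0.833% were at 1 CPM or more in a root library, against 81.1 ± 2.57% of those higher in stem (SD, n = 12 root libraries). For more than 8-fold differences 23.4% of needle-higher and 76.4% of stem-higher transcripts had a root mean of 1 CPM or more. Over all 68434 transcripts the share was 85.5%. The root mean lay below both other organs for 72.5% of the needle-higher and 3.96% of the stem-higher transcripts, both beyond 2-fold. Of the former, 96 had 0 counts in all root libraries, of the latter 0. In root counts, the needle-higher set took 6.39 ± 0.253% and the stem-higher set 13.7 ± 0.787% (SD, n = 12). At 1 CPM the stem-higher share was thus close to or below that of all 68434 transcripts, and the needle-higher share further below it. The medians in the higher organ were 6.69 CPM for the needle-higher and 3.39 CPM for the stem-higher set. Among members with a mean of 5 CPM or more in either organ, the shares were 69.7 and 97.7%. With a mean of 1 CPM over the 24 libraries they were 60.2 and 91.9%. The share of all transcripts at those limits was not computed. With library totals in place of TMM the shares with a root mean of 1 CPM or more were 47.2 and 85.7%, in place of 55.7 and 83.0%.

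Transcripts with neighbouring identifier numbers mostly differed in the same direction. Among 50124 pairs with consecutive numbers, both were called in 27627, and in 24746 of those (89.6%) the direction was the same. The log2 fold changes of neighbours had a Pearson's r of 0.688 over the pairs. The longest unbroken runs called in one direction held 21 transcripts higher in needles and 27 higher in stem. Neighbouring numbers may belong to transcripts of 1 gene, so counts of transcripts are not counts of genes.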

How the data were processed

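The authors deposited raw counts per transcript identifier for 36 libraries, all matched to a sample by name. Per the series design, reads were paired-end of 150 bp, and bcl2fastq is named in the submitters' processing notes. Aligner, counter and assembly are not given in the sources used here. The labels' extraction text names root RNA and their treatment text another root experiment, so the design came from titles, characteristics and the series design.

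With R 4.3.3 and edgeR 4.0.16, the 24 needle and stem libraries were fitted with a mean per group (8 groups, 16 residual degrees of freedom), after filterByExpr (minimum count 10) and TMM scaling, with robust quasi-likelihood F-tests. All tests are two-sided, and Benjamini-Hochberg adjustment ran over the transcripts tested. limma 3.58.1 and DESeq2 1.42.0 served as alternatives. The fit was tested on simulated data. Standard errors come from the change and its F statistic. Named transcripts, at a mean of at least 5 CPM where chosen by size or treatment, are the 2 largest in each direction by size of difference, by abundance (beyond 2-fold, no overlap), and by nitrogen form and CO2 among those called, with the 2 most abundant even ones (log2 fold change under 0.2). Those chosen by size had to be called in all 4 treatments without overlap, and those chosen by abundance had to be called. The members, lists and tests were chosen with earlier results of these data known. Scaling by library totals and the fit without 4 stem libraries were added after the data were seen.

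Pools supplied all organs, so same-numbered needle and stem libraries of a treatment are paired by the series design. Their deviations from group means correlated at 0.0403 to 0.204 (median 0.109, 12 pairs), other numbers at a median of -0.0522. Replicate pairs differed beyond counting noise (chi-square per degree of freedom 218 to 817 at 100 CPM or more, 24 pairs). Counts of 7 libraries with an excess of even values may be less precise than their totals imply, which was not tested.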

Additional observations from a re-analysis of the deposited data

Results flagged for a closer look

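Organ differences that differed between treatments by a test of the difference itself (edgeR, quasi-likelihood, with adjustment over all transcripts by Benjamini-Hochberg, threshold 0.05) were singled out. They numbered 9 over the 4 treatments together, 23 by nitrogen form, 2 by CO2 and 1 by the combination. Among the named ones, the adjusted p by nitrogen form was 0.0241 for PpCO2_101730, 0.0241 for PpCO2_20584, 0.0235 for PpCO2_5952 and 0.00533 for PpCO2_144703. By CO2 it was 0.0426 for PpCO2_77283 and 0.0218 for PpCO2_17863. Their levels and the libraries on which each call rests stand with the results. Of these 6, PpCO2_144703 alone kept its call in all 24 fits without a single library. Without the low-complexity libraries all 6 calls were lost (edgeR adjusted p 0.0549 to 0.899), and limma-voom did not call the 4 by nitrogen form (0.167 to 0.866). Groups of 3, and the 12 libraries of an organ, were not examined by the test for single outlying values, which needs groups of 4 to 10.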

How the results depend on the processing

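The 8 transcripts named for size or abundance, chosen among those called, kept direction and call under every alternative fitted. Of the library measures, the top 50 share and the number at 1 CPM or more were followed in 4 alternatives. These left out the low-complexity libraries or 1 replicate of every group, and both measures kept direction and an adjusted p under 0.05 (permutation test). With library totals in place of TMM the counts were 12715 higher in needles, 41908 higher in stem, 17871 higher in stem in all 4 treatments and 19625 over 2-fold in stem, the F-test gave 16, CO2 0, and the root shares were 47.2 and 85.7%. Other counts that moved follow the construction of the alternative: a mean of 5 CPM or more left 14084 and 12382 calls, 6433 and 4334 over 2-fold, and root shares of 69.7 and 97.7%. A mean of 1 CPM over the 24 libraries gave root shares of 60.2 and 91.9%. A fold over 2 left 11210 and 11292 calls and 4783 higher in stem in all 4 treatments, and the CPM ratio without TMM gave 7210 over 2-fold in needles. The counts of treatment dependence (F-test, nitrogen form, CO2, both) were 23, 38, 42 and 3 without a low-count filter, 785, 193, 874 and 52 with DESeq2, 0, 1, 13 and 0 with limma-voom, 42, 63, 25 and 0 with roots in the fit, and 1, 2, 0 and 0 at an adjusted p under 0.01. The replicate block (pool of seedlings) gave 37, 39, 107 and 0, with 21792 and 21725 organ calls, and besides these counts it ended the call of PpCO2_20584 alone among the named transcripts. Without the low-complexity libraries nitrogen form gave 1, CO2 15 and the needle root share was 56.9%. Without the 4 stem libraries with needle transcripts, nitrogen form gave 5, CO2 31 and both 0, nitrate at 400 ppm 15572 calls and all 4 treatments in stem 4804. Leaving out each replicate of every group or each single library gave 1 to 180 for the F-test, 2 to 159 for nitrogen form, 0 to 452 for CO2 and 0 to 97 for both, 3994 to 7278 higher in stem in all 4 treatments, 17440 to 27537 calls with ammonium at 720 ppm, and needle root shares of 55.4 to 56.9%. The causes of these shifts were not tested. The median replicate SD (log2) in needles and stem was 0.29 and 0.30 under 10 CPM, 0.16 and 0.18 at 10 to 100 CPM, 0.13 and 0.17 at 100 to 1000 CPM, and 0.20 and 0.30 at 1000 CPM or more.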
